A study of Mus musculus with 4 samples.

Results

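The TNF superfamily ligands are the membrane-bound and secreted relatives of tumour necrosis factor. The members described here are 10 genes that helper T cells are known to express: Tnf, Lta, Ltb, Fasl, Tnfsf10, Cd70, Cd40lg, Tnfsf11, Tnfsf8 and Tnfsf14. They were chosen by symbol, with earlier results of these data known, so counts of members beside all genes are description only. Every probe set that the platform annotation assigns to one of these symbols alone was used, on all 4 arrays. This gave 15 probe sets of the 34945 that carry a single gene, and 10 genes of 18193. Fasl, Tnfsf11 and Tnfsf14 had more than 1 probe set, as did Tnfsf10, and the other 6 genes had 1 each. The main probe set of a gene is the one with the highest mean over the 4 arrays.

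Total RNA from CD4+ T cells of mice was hybridized to Affymetrix mouse arrays, 1 array per group. Sorted naive CD4+ T cells of spleen and lymph nodes were activated for 72 h with antibodies against CD3 and CD28, then expanded for 4 days in interleukin-2, and restimulated for 2 h through CD3 and CD28. Th1 cultures had interleukin-12 throughout and an antibody against interleukin-4 in the first step, and Th2 cultures had interleukin-4 throughout and an antibody against interferon gamma in the first step. The Th1 wild type and Th2 wild type cells were labelled C57BL/6J, the Th1 STAT4-deficient cells C57BL6-STAT4<tm1> (STAT4KO), and the Th2 STAT6-deficient cells B6.129S2©-STAT6<tm1Gru>/J (STAT6KO). All 4 groups were therefore activated, polarized and restimulated cells, and none was resting. Each of the 2 knockouts lacks its gene in the whole mouse, so the deficiency is not limited to T cells. Age, sex and the number of mice behind an array are not given in the sources used here. With 1 array per group, no value below has a replicate error and no difference has a test, and the number of arrays limits the precision of each statement.

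As background, ligands of this family are made as trimers that bind receptors of the TNF receptor superfamily. The receptors pass the signal through TRAF adaptors to NF-kappaB and MAP kinases or, where they carry a death domain, through FADD and caspase-8 to apoptosis. In helper T cells most of these ligands appear after engagement of the T cell receptor. There they activate macrophages and B cells (TNF, lymphotoxins, CD40 ligand), kill target cells (Fas ligand, TRAIL) or costimulate other lymphocytes (CD70, LIGHT, CD30 ligand). STAT4 carries the interleukin-12 signal that favours Th1 cells, and STAT6 carries the interleukin-4 signal that favours Th2 cells.

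Values are the deposited log2 signals, and a difference of 1 on this scale is 2-fold. A gene was called higher or lower where its main probe set differed 2-fold or more and one of the arrays compared was at or above 5.82, the median of all probe sets and arrays (the level minimum). All 10 members met this minimum in each of the 4 comparisons. As a technical yardstick, probe sets of a gene disagreed about a difference with an SD of 0.48 log2 units for the pair of Th1 arrays, 0.65 for the Th2 pair, 0.71 for the wild types and 0.85 for the knockouts. This SD reflects how probes behave and holds no variation between mice or cultures. Arrays that are neighbours in the order of a probe set's levels and lie closer than this SD are described below as not separated.

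The T cell markers were present on each array: all 6 measured genes of that list, Cd3e, Cd3d, Cd3g, Cd4, Cd2 and Cd5, were above the level minimum on all 4, and their summed signal ran from 15.14 to 15.45 on the log2 scale. Summed signals of the other marker lists were 7.46 to 8.88 for CD8 and NK cells, 7.23 to 8.09 for B cells and 9.90 to 10.65 for myeloid and dendritic cells. Without STAT6, 5 of the 7 myeloid and dendritic markers that met the level minimum were called lower, beside 19.5% of all genes. None was called higher, and the summed signal of the list went from 10.41 to 10.03. Among the 5 was H2-Aa, whose 4 probe sets ran from -2.05 to 0.56. Cd74, the brightest of the list, differed by 0.57 and was not called. Cd8b1 was also called lower (-2.07). The part of these markers in the results was not tested. The 3 prime minus 5 prime signal of the beta-actin control was 2.08 on the Th2 STAT6-deficient array, against 0.32 to 0.85 on the other arrays, and the part of this difference in the results below was not tested. In bulk RNA, fewer cells making a transcript and less transcript per cell cannot be told apart. Stat4 read 11.45 in Th1 wild type and 9.20 in Th1 STAT4-deficient cells. Stat6 read 10.93 and 10.92 in Th2 cells with and without STAT6, and whether its probes lie in the deleted part is not given in the sources used here.

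The TNF and lymphotoxin genes shared 1 pattern: they were low in Th2 wild type cells and high on the other 3 arrays. Ltb, Tnf and Lta are consecutive protein-coding genes on chromosome 17. Tnf encodes tumour necrosis factor, the inflammatory cytokine that activates macrophages and endothelium. Its probe set read 14.31 and 13.42 in Th1 cells with and without STAT4, and 11.36 and 13.76 in Th2 cells with and without STAT6. The Th2 wild type array stood 2.05 log2 units below the next, and the other 3 arrays were not separated from their neighbours in the order. The brightest probe set of any kind on the Th1 wild type array read 15.11, so Tnf was close to the top of the scale there.

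Lta encodes lymphotoxin alpha, which is secreted as a homotrimer or anchored to the membrane with lymphotoxin beta. It read 12.53 and 11.87 in Th1 cells with and without STAT4, and 8.83 and 12.51 in Th2 cells with and without STAT6. The Th1 wild type and Th2 STAT6-deficient arrays were 0.03 log2 units apart, and Th2 wild type was 3.04 below the next array. Ltb, the membrane-bound partner of lymphotoxin alpha, read 13.86 and 13.53 in Th1 cells with and without STAT4, and 11.39 and 13.28 in Th2 cells with and without STAT6. The gap below the 3 bright arrays was 1.89 for this gene.

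The genes that flank the cluster did not show these differences to the same size. Nfkbil1, next to Lta, differed by -0.04 log2 units without STAT6 and by 0.78 between the wild types. Lst1, next to Ltb, differed by 1.16 and 0.82. The difference between cluster and flanking genes has no test on these arrays.

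Fasl, on chromosome 1, was likewise lowest in Th2 wild type cells. It encodes Fas ligand, which kills cells that carry the death receptor Fas. The main probe set read 11.70 and 10.86 in Th1 cells with and without STAT4, and 9.36 and 11.90 in Th2 cells with and without STAT6. The other probe set read 10.93, 9.89, 8.51 and 10.05 in the same order of arrays. Both placed Th2 wild type lowest, by at least 1.38 log2 units, and Th1 STAT4-deficient below Th1 wild type.

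**Figure D1:**
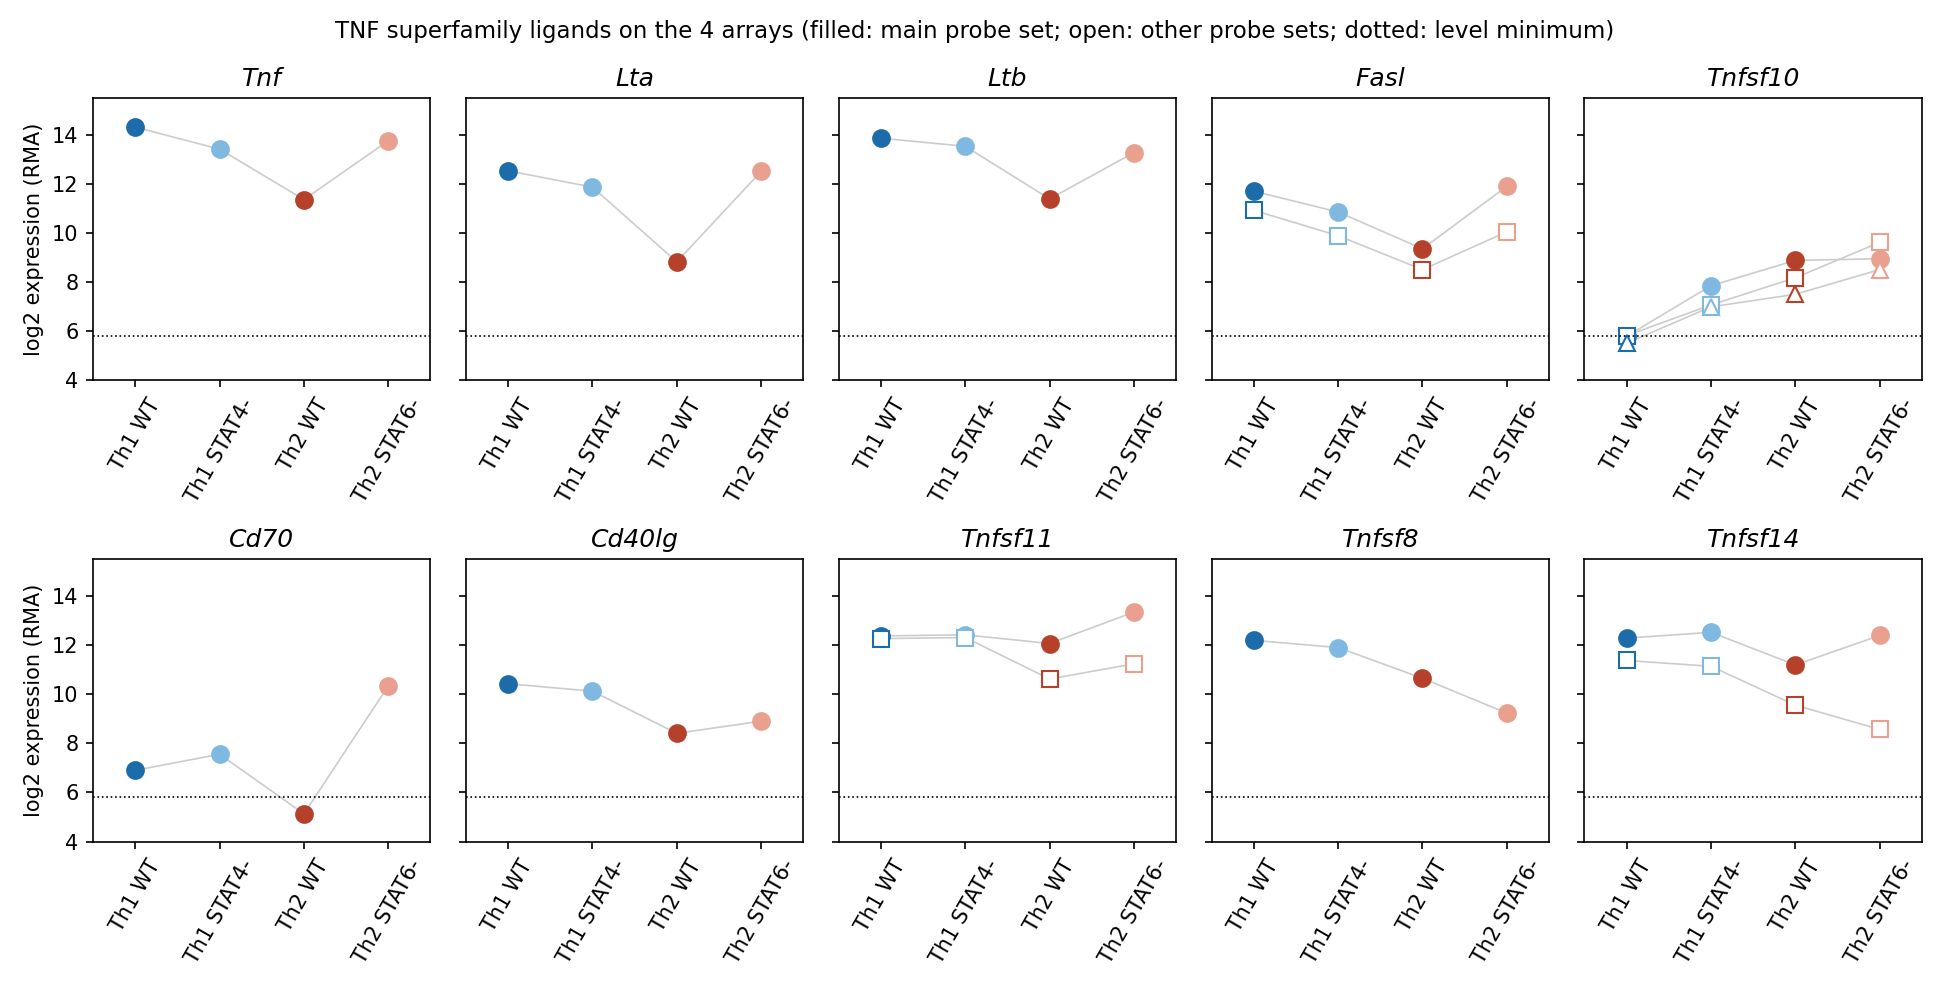
Log2 expression (y axis) of the 10 TNF superfamily ligands on the 4 arrays (x axis: Th1 and Th2 cells, wild type shown as WT and knockouts as STAT4- and STAT6-), 1 panel per gene. Filled points are the main probe set, open points the other probe sets, grey lines join 1 probe set, and the dotted line is the level minimum of 5.82. Tnf, Lta, Ltb and Fasl dip on the Th2 wild type array, Cd70 runs from 5.13 there to 10.34 without STAT6, and the probe sets of Tnfsf14 part on the Th2 STAT6-deficient array (12.39 and 8.57).

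The windows before the starts of the cluster genes and Fasl are shown because these 4 genes were all lowest in Th2 wild type cells and high without STAT6, and that of Tnfsf8 because it was the 1 member called lower without STAT6. Each is the 250 bases before the gene's start, 5′ to 3′ on the gene's strand, from RefSeq (GRCm38.p6, to which the coordinates belong). The main probe sets of Cd70, Tnfsf11 and Tnfsf14 were also lowest in Th2 wild type cells and called higher without STAT6. The table held 8 of the 10 members, and Cd70 was not among them. The windows of Tnfsf11 and Tnfsf14, whose other probe sets were not 2-fold higher without STAT6 (0.62 and -0.99), are not printed. Windows were searched on both strands for TTC and GAA with 3 bases between them, a spacing bound by STAT proteins, and with 4 bases between them, the spacing that STAT6 also binds. They were also searched for GGG and CC with 5 bases between them, an NF-kappaB pattern, and for GGAAA, the NFAT core. Capitals mark the first 3 patterns. Overlapping matches to the NF-kappaB pattern run together as 1 stretch, and a GGAAA can overlap a marked stretch.
Tnf, chr17:35202008-35202257, minus strand: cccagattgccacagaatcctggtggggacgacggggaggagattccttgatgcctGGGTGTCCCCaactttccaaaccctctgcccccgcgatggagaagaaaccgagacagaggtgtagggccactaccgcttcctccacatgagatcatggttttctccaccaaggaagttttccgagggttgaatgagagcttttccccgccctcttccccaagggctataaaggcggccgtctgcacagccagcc
Lta, chr17:35205352-35205601, minus strand: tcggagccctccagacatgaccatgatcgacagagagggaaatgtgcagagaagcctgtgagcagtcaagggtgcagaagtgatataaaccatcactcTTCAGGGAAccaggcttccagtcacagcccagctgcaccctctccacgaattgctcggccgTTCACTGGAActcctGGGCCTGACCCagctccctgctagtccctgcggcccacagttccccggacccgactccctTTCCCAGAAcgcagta
Ltb, chr17:35194257-35194506, plus strand: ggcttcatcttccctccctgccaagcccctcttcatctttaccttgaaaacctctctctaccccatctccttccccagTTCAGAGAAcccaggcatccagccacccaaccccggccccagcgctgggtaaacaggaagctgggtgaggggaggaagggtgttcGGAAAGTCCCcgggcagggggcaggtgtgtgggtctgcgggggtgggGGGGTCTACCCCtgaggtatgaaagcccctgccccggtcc
Fasl, chr1:161788496-161788745, minus strand: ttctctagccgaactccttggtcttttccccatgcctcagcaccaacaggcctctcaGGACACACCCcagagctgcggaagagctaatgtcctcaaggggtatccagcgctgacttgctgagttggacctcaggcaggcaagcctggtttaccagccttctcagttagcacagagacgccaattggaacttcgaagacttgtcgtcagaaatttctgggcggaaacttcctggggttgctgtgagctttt
Tnfsf8, chr4:63861285-63861534, minus strand: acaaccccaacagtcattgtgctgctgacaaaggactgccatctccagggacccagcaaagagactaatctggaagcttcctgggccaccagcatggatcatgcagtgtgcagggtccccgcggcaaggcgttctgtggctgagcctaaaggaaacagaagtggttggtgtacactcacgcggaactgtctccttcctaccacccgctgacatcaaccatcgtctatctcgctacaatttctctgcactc

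Lta held 2 matches to the STAT pattern with 3 bases and 1 to that with 4, and Ltb held 1 match with 3. The windows of the other 6 members in the table held neither. Among all 32851 windows of this length, 7.02% held the pattern with 3 bases and 5.85% that with 4. The NF-kappaB pattern was found in 6 of the 8 member windows and in 45.8% of all windows, and not in those of Tnfsf8 and Tnfsf10. GGAAA was found in 8 of 8 and in 55.6% of all windows. A match describes letters and is not a binding site, and the window leaves out enhancers.

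Tnfsf10 ran the other way between the culture conditions. It encodes TRAIL, a death ligand for receptors of the TRAIL-R family. The main probe set read 5.80 and 7.85 in Th1 cells with and without STAT4, and 8.88 and 8.95 in Th2 cells with and without STAT6. Its first value is just under the level minimum, so the Th1 wild type level is not well defined. Another probe set read 5.82, 7.07, 8.18 and 9.62, and the one whose accession is the curated transcript (NM_009425) read 5.51, 6.99, 7.50 and 8.51. All 3 gave 1 order of arrays, with Th1 wild type lowest, Th1 STAT4-deficient next and Th2 STAT6-deficient highest. They parted on the Th2 arrays, where the difference without STAT6 was 0.07 on the main probe set and 1.44 and 1.01 on the others, both past 2-fold.

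Cd70 had the widest range of the 10 members, 5.21 log2 units. It encodes the ligand of the costimulatory receptor CD27. Its only probe set read 6.90 and 7.56 in Th1 cells with and without STAT4, and 5.13 and 10.34 in Th2 cells with and without STAT6. The STAT6-deficient array stood 2.78 above the next, and Th2 wild type was below the level minimum. The fold against that dim array was 37.1, and against the level minimum itself it was 23.0.

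Cd70 and Tnfsf14 lie next to each other on chromosome 17, with another ligand gene, Tnfsf9, on the other side of Cd70. Tnfsf14 encodes LIGHT, which binds the herpesvirus entry mediator and the lymphotoxin beta receptor. Its main probe set read 12.29 and 12.52 in Th1 cells with and without STAT4, and 11.19 and 12.39 in Th2 cells with and without STAT6. A second probe set with the same transcript accession read 11.38, 11.14, 9.56 and 8.57. Both were higher in Th1 wild type than in Th2 wild type cells, but without STAT6 one was 1.20 higher and the other 0.99 lower. The direction of Tnfsf14 in STAT6 loss therefore depended on the probe set.

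Tnfsf9 encodes 4-1BB ligand and read 12.02 and 10.64 in Th1 cells with and without STAT4, and 10.35 and 11.83 in Th2 cells with and without STAT6. It was called lower without STAT4 (-1.38) and higher without STAT6 (1.47). With the hybridization controls as the scale the first difference was -0.99, under 2-fold.

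Cd40lg and Tnfsf8 followed the culture condition and did not return to the Th1 level without STAT6. Cd40lg encodes CD40 ligand, the help signal to B cells and dendritic cells. It read 10.43 and 10.13 in Th1 cells with and without STAT4, and 8.41 and 8.91 in Th2 cells with and without STAT6. The Th1 arrays were not separated from each other, nor were the Th2 arrays, and 1.22 log2 units lay between the 2 sets.

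Tnfsf8 encodes CD30 ligand. It read 12.20 and 11.90 in Th1 cells with and without STAT4, and 10.65 and 9.23 in Th2 cells with and without STAT6. It was the only member whose main probe set was lowest on the STAT6-deficient array, 1.42 below Th2 wild type.

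Tnfsf11 varied least, with a range of 1.28 on the main probe set. It encodes RANK ligand, the osteoclast factor that activated T cells also make. The main probe set read 12.38 and 12.42 in Th1 cells with and without STAT4, and 12.07 and 13.35 in Th2 cells with and without STAT6. The other probe set read 12.27, 12.31, 10.62 and 11.24. The probe sets gave differences of 0.05 and 0.04 in STAT4 loss. They disagreed on the STAT6-deficient array, which was the highest on one and below both Th1 arrays on the other.

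Between the wild types, the comparison that defines the polarized pattern, 8 of 10 ligands were called higher in Th1 than in Th2 cells and 1, Tnfsf10, was called lower. The background, over all 12111 genes that met the level minimum, was 8.14% called higher in Th1 cells and 25.4% called lower. The median difference was 1.90 over the members and -0.10 over all genes. Lta was 13.1-fold, Tnf 7.73-fold, Ltb 5.55-fold and Fasl 5.09-fold higher in Th1 cells, and Cd40lg was 4.06-fold higher. Cd70 (3.42-fold, or 2.12-fold over the level minimum, which its Th2 level did not reach), Tnfsf8 (2.92-fold) and Tnfsf14 (2.13-fold) completed the 8. Tnfsf10 was 8.50-fold lower, against a Th1 level at the minimum, and 5.12-fold and 3.98-fold lower on its other probe sets. Tnfsf11 differed by 0.31 on the main probe set and by 1.65 on the other. The Tnfsf14 call was lost with arrays centred on the hybridization controls (0.71). Markers moved in this comparison too. The T cell genes Cd3e (1.14), Cd4 (1.05, and 2.49 on its other probe set) and Cd5 (1.31) were called higher in Th1 cells. So were Lyz2 (1.39) and Cd74 (1.13) of the myeloid and dendritic list. Adgre1 (-3.26), Itgax (-1.19) and Cd8b1 (-1.13) were called lower. With the hybridization controls the calls of Cd3e, Cd4, Cd5 and Cd74 were lost, and after quantile normalization and loess that of Cd8b1. The part of these markers in the ligand differences was not tested. The wild types were labelled as separate controls of the STAT4 and STAT6 experiments, so source or processing cannot be told apart from culture condition. In the comparisons below, processing of single arrays cannot be told apart from STAT loss or culture condition either.

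Without STAT6, 7 of 10 ligands were called higher than in Th2 wild type cells and 1, Tnfsf8, was called lower. The background over 11490 genes was 7.01% called higher and 19.5% called lower. The median difference was 1.58 over the members and -0.19 over all genes. Cd70 had the largest difference, followed by Lta (12.8-fold), Fasl (5.84-fold), Tnf (5.26-fold), Ltb (3.69-fold), Tnfsf11 (2.43-fold) and Tnfsf14 (2.30-fold). Tnfsf8 was 2.68-fold lower. Cd40lg (0.50) and the main probe set of Tnfsf10 (0.07, and -0.05 with the hybridization controls) were not called. The 8 calls were the same under the 4 other scalings of the arrays. When every probe set of a gene had to be called the same way, 5 were higher, since Tnfsf11 and Tnfsf14 dropped out.

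Of the 7 ligands raised without STAT6, 5 came within the probe-set disagreement of 0.89 log2 units of the Th1 wild type array. This holds for the deposited values, and the disagreement of 0.89 was the largest of any pair of arrays. The share of all genes that lie this close is not given, so the count has no background beside it. The difference from Th1 wild type was -0.56 for Tnf, -0.03 for Lta, -0.59 for Ltb, 0.20 for Fasl and 0.11 for Tnfsf14. Cd70 was 3.44 above it and Tnfsf11 0.97 above it. On the second probe sets these differences were -0.88 for Fasl, also within the disagreement, and -1.03 for Tnfsf11 and -2.81 for Tnfsf14, both beyond it. The comparisons of the wild types and of STAT6 loss share the Th2 wild type array, which was the lowest of the 4 for 8 of 10 members. Their differences are thus not independent of each other. The actin 3 prime minus 5 prime difference grew by 1.23 log2 units from Th2 wild type to the STAT6-deficient array, and that of Gapdh by 0.77.

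**Figure D2:**
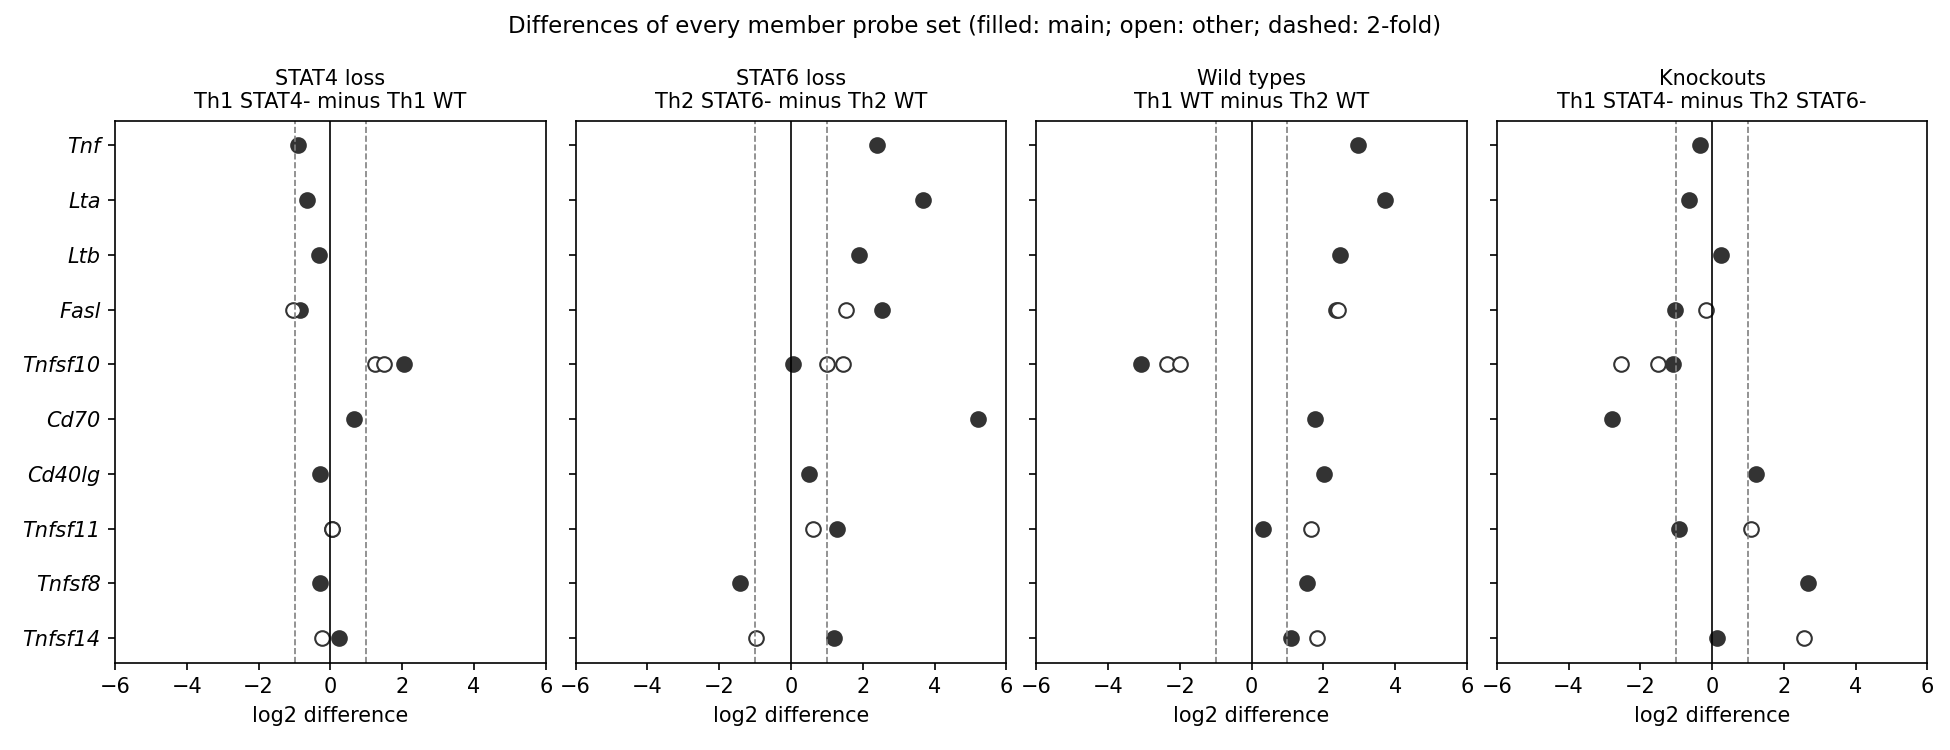
Log2 differences (x axis) of every probe set of the 10 ligands (y axis) in the 4 comparisons: STAT4 loss, STAT6 loss, wild type Th1 minus Th2, and knockout Th1 minus Th2. Filled points are main probe sets, open points the other probe sets, and dashed lines mark 2-fold. For STAT4 loss the points lie within the dashed lines apart from Tnfsf10 (1.25 to 2.06) and 1 Fasl probe set (-1.04), and most lie right of them for STAT6 loss, with Cd70 at 5.21 and Tnfsf8 at -1.42.

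Without STAT4, Th1 cells kept most of these transcripts within 2-fold of wild type. Tnfsf10 alone was called higher (4.16-fold, and at least 1.25 log2 units on each of its 3 probe sets), and no member was called lower. The background over 12608 genes was 6.18% called higher and 5.34% called lower, so the share of members called was near that of all genes. The median difference was -0.30 over the members and 0.17 over all genes. Tnf differed by -0.90, Fasl by -0.85 and -1.04 on its 2 probe sets, and Lta by -0.66. Each of these exceeded the probe-set disagreement of 0.48 on the deposited values. Lta fell within it after quantile normalization (-0.30), loess (-0.39) and with the hybridization controls (-0.28), and the main probe set of Fasl with the hybridization controls (-0.46). Ltb (-0.33), Cd40lg (-0.30) and Tnfsf8 (-0.29) lay within it, as did Tnfsf11 (0.05) and Tnfsf14 (0.24 and -0.24). Cd70 differed by 0.66. The array scaling moved these values across limits: Tnf (-1.14) and Fasl (-1.09) were called lower after median centring, and Cd70 (1.04) was called higher with the hybridization controls. After quantile normalization, loess or the hybridization controls Ltb differed by 0.05, 0.04 and 0.05, so its direction was not settled. The sign also turned under at least 1 other scaling for Cd40lg, Tnfsf8, Tnfsf11 and Tnfsf14, all of them uncalled. Of 6 myeloid and dendritic markers that met the level minimum, 2 were called lower, H2-Aa (-1.45) and Cd74 (-1.27). The Cd74 call was lost with the hybridization controls, and the 4 probe sets of H2-Aa ran from -1.45 to -0.16. The part of these markers was not tested.

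**Figure D3:**
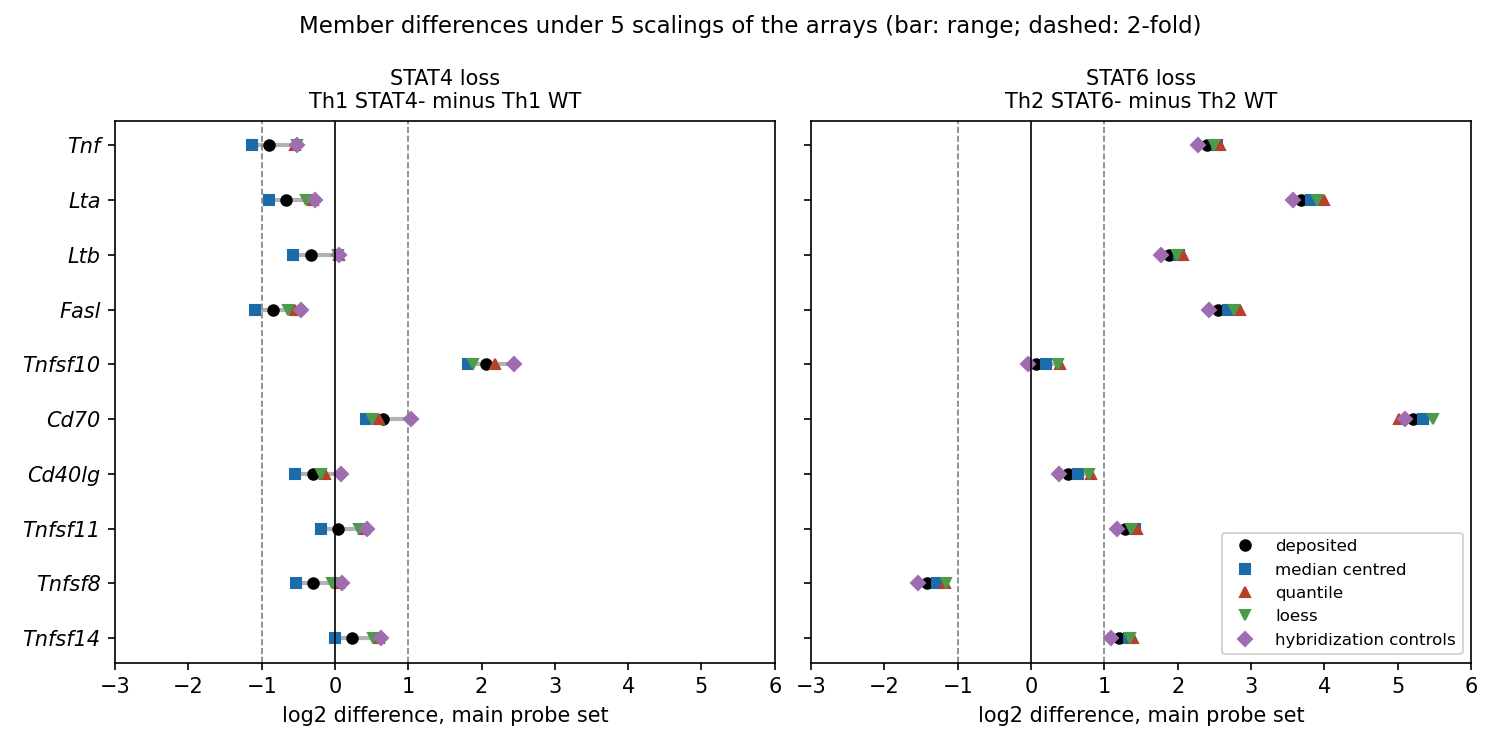
Log2 difference of the main probe set (x axis) of each ligand (y axis) in STAT4 loss (left) and STAT6 loss (right), for the deposited values and 4 other scalings of the arrays; the grey bar spans the 5 values and dashed lines mark 2-fold. The Tnf bar runs from -1.14 to -0.51 in STAT4 loss, across the 2-fold line, and from 2.28 to 2.58 in STAT6 loss.

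The knockouts were compared to see which ligands still separated the cultures when each lacked its own STAT. Cd40lg and Tnfsf8 were called higher in Th1 STAT4-deficient than in Th2 STAT6-deficient cells, by 1.22 and 2.67, and Fasl (-1.05), Tnfsf10 (-1.10) and Cd70 (-2.78) were called lower. The background over 12582 genes was 12.6% called higher and 10.3% called lower. The median was -0.49 over the members and 0.21 over all genes. Tnf (-0.34), Lta (-0.64) and Ltb (0.26), which had separated the wild types by 2.47 to 3.71, did not reach 2-fold here, though Lta (-1.01) passed it after median centring, as did Tnfsf11 (-1.30). The calls of Cd70 and Tnfsf8 held under all 4 other scalings. The Fasl call was lost after quantile normalization (-0.71), loess (-0.74) and with the hybridization controls (-0.92), and that of Cd40lg (0.84) after median centring. Tnfsf10 was just under 2-fold on its main probe set under the same 3 scalings, at -0.89, -0.92 and -0.97, and its other probe sets differed by -2.55 and -1.52. The second probe set of Fasl differed by -0.16, and those of Tnfsf14 (2.57) and Tnfsf11 (1.07) were past 2-fold where the main ones were not. Among the markers Cd4 (1.97, and 3.24 on its other probe set), Flt3 (1.46) and Lyz2 (1.18) were called higher. Cd3g (-1.12) was called lower. Only the Cd4 call held under all 4 other scalings. The part of these markers in the ligand differences was not tested.

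Of the 11 receptor genes of these ligands, 7 met the level minimum in STAT6 loss, and 1 was called higher and 1 lower, beside 7.01% and 19.5% of all genes. Fas, the receptor of Fas ligand, was the higher one (1.61), and Tnfrsf8, which encodes CD30, the lower one (-2.89, or -1.78 with the dim array set at the level minimum). Fas read 10.45 and 9.47 in Th1 cells with and without STAT4, and 8.26 and 9.87 in Th2 cells with and without STAT6, the order that Tnf showed. Tnfrsf8 read 4.78, 5.71, 7.60 and 4.71 on these arrays and reached the level minimum in Th2 wild type cells only. Its ligand gene Tnfsf8 was also lower without STAT6, but was brightest on the Th1 arrays, where the receptor was dim.

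Between the wild types 9 receptor genes met the level minimum. Fas (2.19), Cd27 (1.15) and Tnfrsf1a (1.03) were called higher in Th1 cells and Tnfrsf8 (-2.82) lower. Of all genes 8.14% were called higher and 25.4% lower. The calls of Cd27 and Tnfrsf1a were lost with the hybridization controls (0.78 and 0.66). Cd27, the receptor of CD70, read 10.44 and 10.64 in Th1 cells with and without STAT4, and 9.29 and 9.77 in Th2 cells with and without STAT6. In STAT4 loss 1 of 8 receptors was called lower and none higher, beside 5.34% and 6.18% of all genes. It was Tnfrsf1b (-1.04), which encodes the second TNF receptor, and 3 of 4 other scalings did not call it. The receptor medians were 0.19 in STAT4 loss, 0.28 in STAT6 loss and 0.34 between the wild types. Those of all genes were 0.17, -0.19 and -0.10.

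Of 8 further ligand genes on a fixed list, 4 had a probe set of their own. Tnfsf4, which encodes OX40 ligand, was 5.67-fold higher without STAT6 and read 9.34 and 9.13 in Th1 cells with and without STAT4, and 7.38 and 9.88 in Th2 cells with and without STAT6. Tnfsf13b, which encodes the B cell survival factor BAFF, read 6.18, 6.08, 9.83 and 4.21, a difference of -5.63 without STAT6 on its main probe set (-4.02 with the dim array set at the level minimum), while another of its 3 probe sets differed by 0.23. Of the others, Tnfsf9 is described above, and Eda differed by 0.39 between the wild types, 0.10 in STAT4 loss and -0.08 in STAT6 loss.

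**Figure D4:**
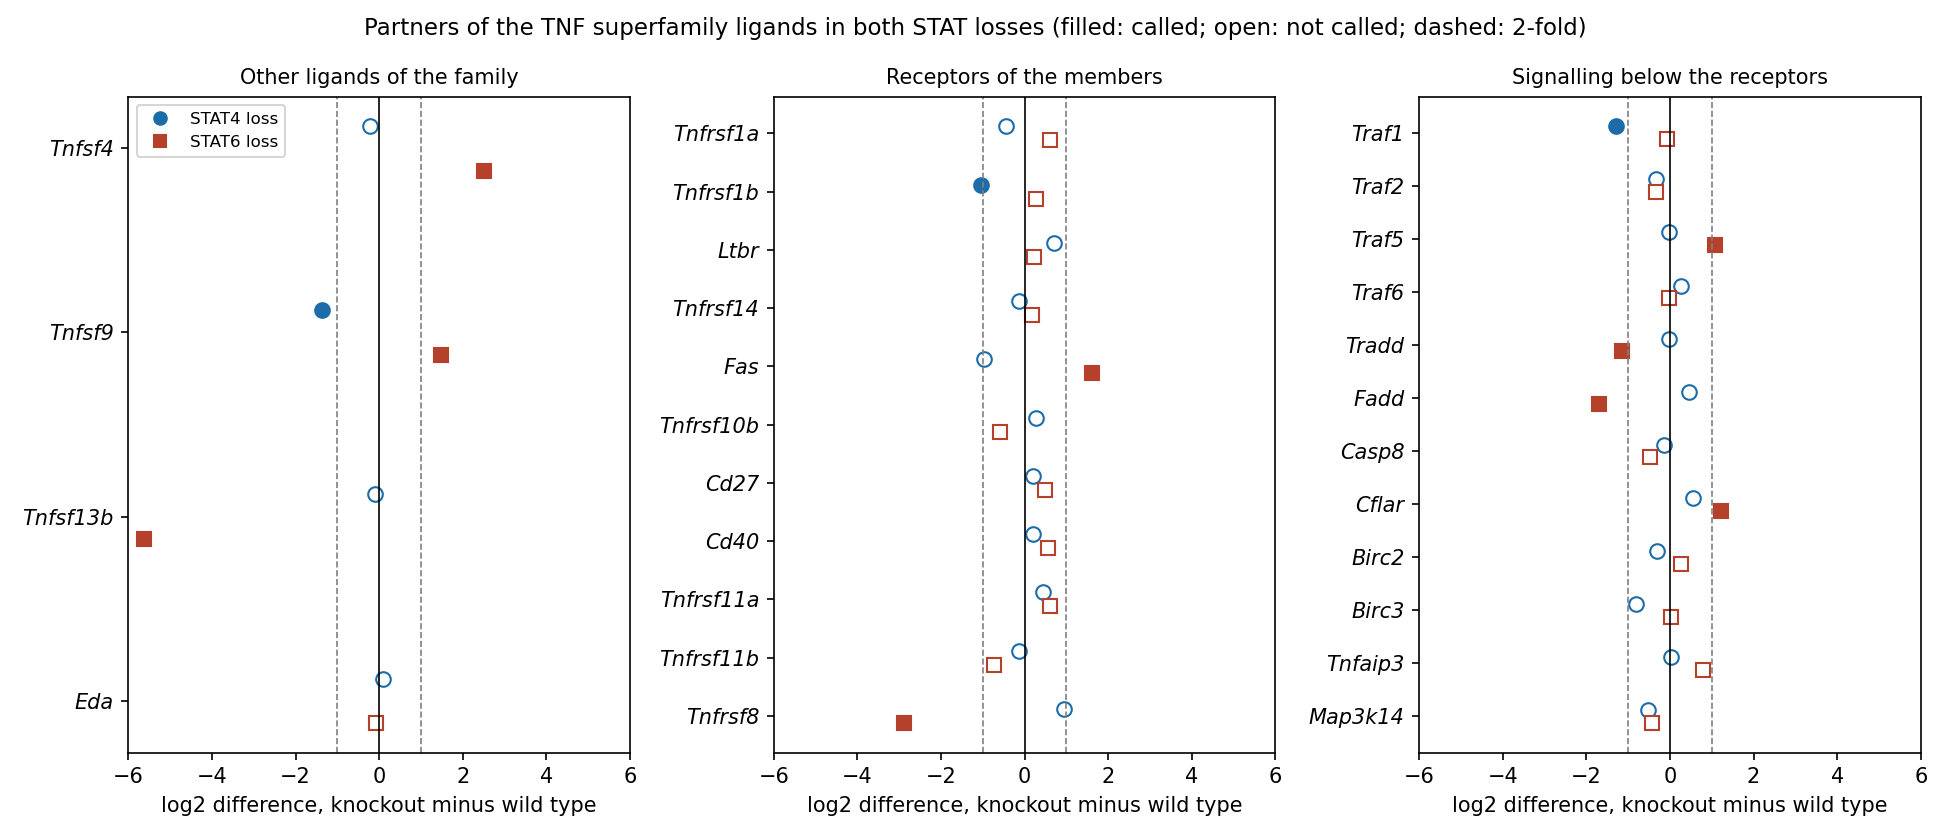
Log2 difference, knockout minus wild type (x axis), of other ligands of the family, receptors of the 10 ligands and signalling genes below the receptors (y axis) for STAT4 loss (blue circles) and STAT6 loss (red squares). Filled symbols are called genes, open symbols genes that are not, and dashed lines mark 2-fold. Tnfsf13b (-5.63) and Tnfrsf8 (-2.89) lie furthest left and Tnfsf4 (2.50) furthest right, all in STAT6 loss.

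Among 12 measured signalling genes, 2 were called higher and 2 lower without STAT6 (median -0.04), beside 7.01% and 19.5% of all genes. In STAT4 loss 1 was called lower (median -0.08), beside 5.34% of all genes. Cflar, which encodes the caspase-8 inhibitor FLIP, was higher without STAT6 by 1.22 and the adaptor gene Traf5 by 1.09. The 5 probe sets of Cflar ran from 0.44 to 1.24, and the other one of Traf5 differed by 0.53. Fadd (-1.70, and -1.02 on its other probe set) and Tradd (-1.15), which encode death domain adaptors, were lower. The 3 probe sets of Tradd ran from -1.60 to -0.15. The Tradd call was lost after quantile normalization and loess, and the Traf5 call with the hybridization controls. Traf1 was the gene lower without STAT4 (-1.29, and -0.90 with the hybridization controls). Between the wild types 3 of the 12 were called lower in Th1 cells and none higher, beside 25.4% and 8.14% of all genes. They were Casp8, which encodes caspase-8 (10.89 against 12.42), Fadd (-1.51) and Tradd (-1.06). The calls of Fadd and Tradd were lost after quantile normalization and loess.

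Genes known to act on these ligands were listed as well. Of 4 shedding and decay genes, 2 were called higher and 1 lower without STAT6, beside 7.01% and 19.5% of all genes. In STAT4 loss 1 was called lower, beside 5.34% of all genes. Zfp36 encodes tristetraprolin, which destabilizes Tnf mRNA. It read 12.17 and 10.02 in Th1 cells with and without STAT4, and 9.95 and 8.74 in Th2 cells with and without STAT6. The STAT6 loss difference of Zfp36, -1.21, fell under 2-fold after quantile normalization and loess. Zfp36l1, the other decay gene listed, read 13.02 and 12.42 in Th1 cells with and without STAT4. In Th2 cells it read 11.57 with and 12.58 without STAT6. Its call as higher without STAT6 (1.02) was lost with the hybridization controls, and its other probe set differed by 0.27. Adam17, which encodes the protease that sheds TNF, differed by -0.26 in STAT4 loss and -0.19 in STAT6 loss. Adam10, another sheddase gene, was called higher without STAT6 (1.36), though its 4 probe sets ran from -0.62 to 1.36.

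Of 6 measured regulators, 2 were called higher and 1 lower without STAT6, beside 7.01% and 19.5% of all genes. Tbx21, which encodes T-bet, read 12.26 and 11.36 in Th1 cells with and without STAT4, and 7.69 and 11.85 in Th2 cells with and without STAT6. Th2 wild type was the lowest array for this gene too. Nfatc1 was higher by 1.35 on its main probe set and Nfatc2 lower by 2.08. The 5 probe sets of Nfatc1 ran from 0.39 to 1.35, and the 6 probe sets of Nfatc2 from -2.08 to 0.51. Egr2 (-1.39) and Egr3 (-1.21), regulators of Fasl, were called lower without STAT4 (5.34% of all genes were), the first not after quantile normalization and the second under only 1 of the 4 other scalings. The other Egr3 probe set differed by -0.049.

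Genes with the profile most like a ligand's were sought by the root mean square distance of mean-centred log2 values over the 4 arrays. This likeness rests on 4 values per gene and describes these arrays only. The nearest genes were Grasp (0.16) and Ms4a4b (0.18) for Tnf, Spin4 (0.16) and Xdh (0.23) for Lta, and Ms4a6b (0.046) and Parp8 (0.11) for Ltb. Cxcl11 (0.16) and Tnfrsf25 (0.19) were nearest to Fasl. Those nearest to Cd70 were Ifit2 (0.23) and Ifit1 (0.26). Tex44 (0.0845) and Tex38 (0.0916) were nearest to Cd40lg. Ifna1 (0.027) and Gripap1 (0.028) were nearest to Tnfsf11, and Trim5 (0.039) and Rsph6a (0.044) to Tnfsf14. Some of these genes were dim: Tex38 read 6.06 and Rsph6a 6.08 on their brightest arrays, just above the level minimum. Dctd (0.13) and Dhodh (0.17) were nearest to Tnfsf10, and Net1 (0.19) and Tmlhe (0.20) to Tnfsf8. Among the ligands themselves the closest pairs were Tnf with Ltb (0.27) and Tnf with Fasl (0.33), and the furthest was Cd70 with Tnfsf8 (2.71).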

How the data were processed

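The 4 groups have 1 Affymetrix mouse array each. The authors deposited log2 expression per probe set, computed by RMA according to the submitters' processing notes, which state neither a version nor a joint normalization. Per the deposited values, the log2 medians of the 4 arrays ran from 5.63 to 6.01, so the arrays do not share 1 distribution. Of 45101 probe sets, 64 controls were left out. In the platform annotation 34945 of the rest had a single gene, and 34741 of these matched a RefSeq gene table (GRCm38.p6) used for symbols and neighbours.

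Differences were taken between arrays with Python 3.11.15 and pandas 2.3.3. Calls needed 2-fold and the level minimum. No test was possible with 1 array per group. Scripts were checked on simulated arrays. Alternatives were 4 scalings, other choices of probe set, other level minimums, a fold limit of 1.5, and agreement of all probe sets, the last chosen after seeing the data. The members and gene lists were chosen with earlier results of these data known. All 10 members are named, and from the other lists called genes, up to 4 per comparison by size, besides genomic neighbours and the genes of nearest profile. Eda and Adam17 were named outside this rule.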

Additional observations from a re-analysis of the deposited data

Results flagged for a closer look

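The second probe set of Fasl was past 2-fold in opposite directions in the 2 losses, -1.04 without STAT4 and 1.54 without STAT6. The main probe set gave -0.85 and 2.55. The difference between the losses was not tested, since each rests on 1 array per group.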

How the results depend on the processing

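The 8 calls of STAT6 loss were unchanged under the 4 other scalings, and so were 8 of the 9 calls between the wild types (all but Tnfsf14). The median over members in STAT4 loss turned from -0.30 to 0.055 after quantile normalization, 0.0043 after loess and 0.086 with the hybridization controls. In STAT4 loss the number called lower went from 0 to 2 with median centring and 3 at 1.5-fold, and the number called higher from 1 to 2 with the hybridization controls and at 1.5-fold. Between the knockouts, median centring gave 1 higher and 5 lower, quantile normalization, loess and the hybridization controls 1 lower each, the probe set with the largest range 4 higher, and the 1.5-fold limit 5 lower, against 2 higher and 3 lower. With the probe set of largest range Tnfsf14 turned to -0.99 in STAT6 loss. The scalings shifted the median of all genes by -0.24 to 0.39 in STAT4 loss, -0.12 to 0.17 in STAT6 loss, -0.38 to 0.14 between the wild types and -0.38 to 0.12 between the knockouts, and the cause was not tested. Of all genes called in STAT6 loss 26.5% were higher, and 20.1% to 43.4% under the other scalings. That share was 53.7% in STAT4 loss (24.8% to 87.5%), 24.3% between the wild types (8.89% to 44.9%) and 55.1% between the knockouts (18.8% to 68.4%). No paired analysis was possible because each group has 1 array, and no array could be left out of a pair for the same reason.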

Other observations

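Few different values occurred on each array: the 45101 probe sets took 3605 and 3338 values in Th1 cells with and without STAT4, and 4007 and 3753 in Th2 cells with and without STAT6. The wild type arrays had 1471 values in common to all deposited digits, the Th1 wild type and Th2 STAT6-deficient arrays 5, and the other 4 pairs of arrays none. How the arrays were grouped during normalization is not given in the sources used here. Neither knockout array shared a value with the wild type array of its culture condition. Processing therefore cannot be told apart from STAT loss in those comparisons.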
